A study of Mus musculus with 9 samples.

Results

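Aminoacyl-tRNA synthetases join each amino acid to its tRNA, the step that supplies charged tRNA to the ribosome. Mammalian cells keep one set of these enzymes in the cytosol and another, encoded by separate nuclear genes, in mitochondria, while the enzymes for glycine and lysine serve both places from a single gene. Many cytosolic synthetase genes are known targets of ATF4, a transcription factor made when uncharged tRNA or other stress slows translation through phosphorylation of the initiation factor eIF2. The genes described here are those that the deposited expression table annotates with the KEGG pathway Aminoacyl-tRNA biosynthesis and that reached 1 FPKM (fragments per kilobase of gene per 1 M assigned fragments) in at least 3 of 9 libraries. All 44 annotated genes of the 21959 in the table met that level. They comprised 19 cytosolic synthetase genes, 17 mitochondrial synthetase genes, 2 genes (Gars and Kars) whose products work in both compartments, and 6 genes of other enzymes that alter charged tRNA. Gene symbols are those of the table. The 17 genes were placed in the mitochondrial class by name. A mitochondrial component term in the table is carried by 16 of them and also by 7 of the 19 cytosolic genes. That term therefore does not separate the classes.

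The cells were mouse mesenchymal stromal cells of bone marrow, a line labelled SV40, grown in DMEM/F12 medium with 10% FBS. Before RNA isolation they spent 24 h with peritoneal fluid of control mice (control PF), with peritoneal fluid of mice given TNBS for 3 days (TNBS PF), or with phosphate-buffered saline (PBS), with 3 libraries in each group. TNBS is a hapten that induces colitis in rodents. The sources used here give neither the strain or age of the fluid donors, nor whether fluids were pooled, nor whether the 3 libraries of a group were separate cultures, and the p-values therefore speak only to spread among these libraries, which may be technical. Of 13 stromal markers, 12 had a mean of at least 1 FPKM, and Lepr did not. Ptprc, the pan-leukocyte gene, was at 0 in 8 of the 9 libraries and at 0.00306 FPKM in PBS 1.

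Depth was 22.9 to 25.6 M assigned fragments with TNBS PF, 18.6 to 21.5 M with control PF and 17.9 to 20.3 M with PBS, so it was higher in every TNBS PF library. Cytosolic synthetase genes had between 485 and 21226 fragments each in a library, and mitochondrial ones between 101 and 2094. The summed FPKM of the 13 stromal markers was lower with TNBS PF (1519 to 1544) than with control PF (1596 to 1615). With PBS it was 1617 to 1684. The members did not all move alike. Means of Col1a1, Col1a2, Pdgfra, Pdgfrb, Ly6a, Cxcl12 and Lepr were lower with TNBS PF than with control PF. Those of Cd44, Itgb1, Vcam1, Nt5e, Thy1 and Eng were higher. Summed FPKM of 12 mesothelial markers was 52.6 to 57.9 with TNBS PF, 46.2 to 47.6 with control PF and 47.8 to 48.6 with PBS. It was highest with TNBS PF. Of the 4 with a mean of 1 FPKM or more, Msln, Krt19 and Krt18 were higher with TNBS PF and Slpi lower. Means with TNBS PF and control PF were 42.2 and 35.6 (Msln), 5.79 and 3.50 (Krt19), 2.36 and 1.77 (Krt18) and 4.94 and 6.04 (Slpi). Muc16 was at 0. The part of these markers in the results below was not tested. That of depth was not tested beyond a refit on thinned fragments. Of neutrophil, lymphocyte, erythroid and endothelial markers 0 reached a mean of 1 FPKM, and of 11 macrophage markers Cd14 and Cd68 did. With fragments thinned to the lowest depth, TNBS PF against control PF gave 13 cytosolic and 0 mitochondrial calls, as with all fragments.

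The promoters of 6 of the genes that rose most with TNBS PF are shown first, because several of them share a short element. Each stretch runs 5′ to 3′ on the gene's strand from 150 bases before the start to 30 bases from it (RefSeq, GRCm38.p6), the start being base 1. Capitals mark TGATGNAA or its reverse complement TTNCATCA, the core of the C/EBP-ATF response element that ATF4 binds with C/EBP partners, and CACGTG, the E-box that Myc and its relatives bind. The stretches lie at chr15:11399629-11399808 (minus strand), chr6:55037851-55038030 (plus), chr13:49681980-49682159 (plus), chr10:127311757-127311936 (minus), chr3:108445230-108445409 (minus) and chr4:129189753-129189932 (plus).
Tars: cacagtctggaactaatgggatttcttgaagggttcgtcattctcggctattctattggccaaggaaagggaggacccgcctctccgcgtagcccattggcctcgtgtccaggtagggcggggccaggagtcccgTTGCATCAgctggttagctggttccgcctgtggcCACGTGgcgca
Gars: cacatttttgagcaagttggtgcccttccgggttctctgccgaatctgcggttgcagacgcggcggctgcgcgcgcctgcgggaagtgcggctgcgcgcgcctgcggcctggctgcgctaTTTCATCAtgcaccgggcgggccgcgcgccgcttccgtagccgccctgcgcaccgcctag
Iars: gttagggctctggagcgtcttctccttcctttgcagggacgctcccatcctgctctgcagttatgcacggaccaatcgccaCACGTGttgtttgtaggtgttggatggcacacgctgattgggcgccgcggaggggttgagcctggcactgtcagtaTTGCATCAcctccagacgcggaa
Mars1: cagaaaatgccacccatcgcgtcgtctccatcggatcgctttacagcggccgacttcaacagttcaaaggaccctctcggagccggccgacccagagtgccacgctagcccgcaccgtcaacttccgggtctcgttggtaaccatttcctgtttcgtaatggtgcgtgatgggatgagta
Sars: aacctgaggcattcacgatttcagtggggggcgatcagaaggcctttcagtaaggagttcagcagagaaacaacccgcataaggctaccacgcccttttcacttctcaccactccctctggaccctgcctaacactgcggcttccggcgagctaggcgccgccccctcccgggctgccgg
Yars: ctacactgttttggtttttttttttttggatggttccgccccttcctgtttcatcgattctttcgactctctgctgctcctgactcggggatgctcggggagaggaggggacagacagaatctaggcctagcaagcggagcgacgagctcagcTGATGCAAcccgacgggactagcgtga

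In the windows of 250 bases before to 50 bases after the start, a promoter was found for 32 of the 44 genes, of which 9 were called higher with TNBS PF against control PF. TGATGNAA was present on either strand in 5 of those 9 (Tars, Gars, Iars, Yars and Aars). It was present in 0 of 5 other cytosolic or both-compartment genes, 0 of 14 mitochondrial synthetase genes and 0 of 4 other enzymes. Among all 32851 promoter windows, 3.97% held it. The match began 15 bases before the start in Tars, 30 before in Gars, at base 8 in Iars and at base 4 in Yars. Aars held a pair of matches, TGATGCAA beginning 112 bases before the start and TGATGAAA at base 10. CACGTG was in 4 of the 9 (Tars, Iars, Aars and Farsb) and in the mitochondrial gene Ears2, against 7.15% of all windows. Mars1 and Sars, printed above, held neither run of letters. A match of letters is a description and not a site of binding, and 12 genes had no window to search, among them Rars, Nars, Wars, Cars and Lars.

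Setting TNBS PF beside control PF addresses what changed in the cells when the mice that gave the fluid had received TNBS. With TNBS PF 13 of 19 cytosolic synthetase genes (68.4%) were called higher and 0 lower at an adjusted p threshold of 0.05. Of all 10537 tested genes 5.15% were called higher and 5.45% lower (10.6% in either direction), and 6.25% were called higher among genes within the FPKM range of the cytosolic ones. Of the called genes Rars, Nars and Tars, which charge arginine, asparagine and threonine tRNA, had the largest changes, of 1.29-, 1.28- and 1.27-fold in mean FPKM. Of the mitochondrial synthetase genes, 0 of 17 passed in either direction by limma, and 0 by limma voom. Their share is near the background of genes at their level, since 2.05% of tested genes within their FPKM range were called higher and 5.83% in either direction. The difference between the classes was not itself tested.

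The summed FPKM of the 19 cytosolic genes was 804, 805 and 790.0 in control PF 1 to 3, 937, 959.7 and 979 in TNBS PF 1 to 3 and 792, 787 and 823 in PBS 1 to 3. All 3 TNBS PF sums lay above the other 6. The 17 mitochondrial genes summed to 65.3, 67.6 and 64.7 with control PF, 65.9, 68.9 and 70.0 with TNBS PF and 65.3, 66.7 and 66.5 with PBS, and the groups overlapped. The median log2 fold change of log2(FPKM + 1) was 0.24 over the cytosolic genes, 0.03 over the mitochondrial genes and −0.01 over all tested genes. In bulk RNA such as this, fewer cells of a type and less RNA per cell cannot be told apart.

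**Figure D1:**
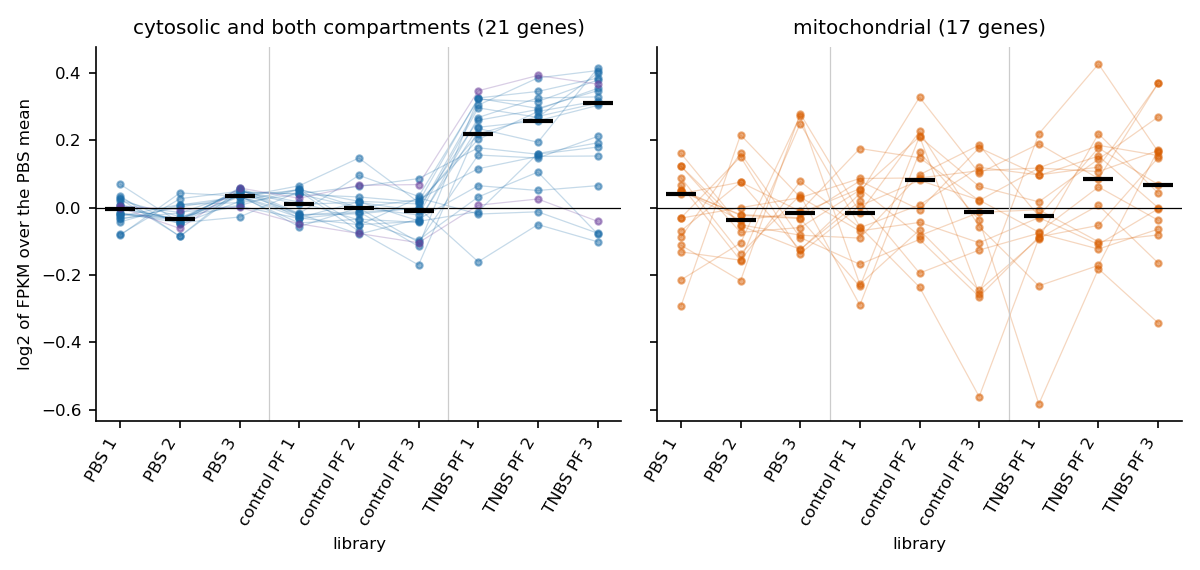
Each point is a gene in a library, as log2 of its FPKM over its mean in the 3 PBS libraries, with cytosolic (blue) and both-compartment (purple) synthetase genes on the left and mitochondrial ones (orange) on the right. Lines join a gene's values, black bars are medians over genes, and the TNBS PF medians stand above the other 6 libraries on the left.

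Among the genes outside the multisynthetase complex, a cytosolic assembly of several synthetases, Nars gave 147, 147 and 145 FPKM with control PF, 180.1, 190.4 and 193 with TNBS PF and 144, 142 and 151 with PBS. It had the highest level of all 44 genes, and every TNBS PF library exceeded the other 6 (ENSMUSG00000024587, chromosome 18, 64499647 to 64516652, minus strand, mm10). Its log2 fold change against control PF was 0.36 (SE 0.0329, adjusted p = 3.59e-05). Tars gave 48.4, 48.8 and 48.5 FPKM with control PF, 60.1, 62.6 and 62.8 with TNBS PF and 48.5, 50.2 and 51.1 with PBS. Its log2 fold change was 0.34 (SE 0.0305, adjusted p = 3.18e-05), the smallest adjusted p of the 44 genes (ENSMUSG00000022241, chromosome 15, 11382301 to 11399665, minus strand).

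Gars, the glycine enzyme of both compartments, gave 107, 109.9 and 110.1 FPKM with control PF, 134, 138 and 135 with TNBS PF and 105, 101 and 109 with PBS. Its 3 TNBS PF libraries lay above all others, with a log2 fold change of 0.31 (SE 0.0324, adjusted p = 9.14e-05) (ENSMUSG00000029777, chromosome 6, 55038007 to 55079500, plus strand). Kars, the lysine enzyme of both compartments and also a subunit of the complex, gave 66.7, 65.4 and 64.2 FPKM with control PF, 69.3, 70.2 and 67.1 with TNBS PF and 69.2, 68.7 and 69.0 with PBS. The TNBS PF values of Kars lay above all 3 control PF values but overlapped those of PBS, and its log2 fold change of 0.07 (adjusted p = 0.13) against control PF did not pass. The 95% interval for Kars was 0.01 to 0.13, whose upper end is under the change of Gars.

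Sars, the serine enzyme, gave 50.8, 52.5 and 50.5 FPKM with control PF, 61.2, 62.0 and 64.0 with TNBS PF and 52.2, 50.3 and 53.0 with PBS. Cars, the cysteine enzyme, gave 25.4, 24.4 and 24.0 FPKM with control PF, 30.0, 29.4 and 32.2 with TNBS PF and 24.9, 23.6 and 24.7 with PBS. Both had TNBS PF values above the other 6 libraries, with log2 fold changes of 0.28 (adjusted p = 0.000168) and 0.30 (adjusted p = 0.000507). Aars, the alanine enzyme, gave 48.5, 47.4 and 47.2 FPKM with control PF, 54.5, 56.5 and 58.1 with TNBS PF and 46.8, 45.7 and 48.0 with PBS, a log2 fold change of 0.23 (adjusted p = 0.000596). Exons of Aars share 1326 bases on the same strand with Exosc6, or 14.3% of the exon length of Aars, and Exosc6 is listed at 0.

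Wars, the tryptophan enzyme, which is also known as an interferon-induced gene, gave 15.6, 14.3 and 13.4 FPKM with control PF, 17.7, 17.2 and 20.1 with TNBS PF and 15.8, 14.6 and 14.8 with PBS. Its libraries spread more widely than those of the other risen genes (SE 0.0612 on the log2 scale), and its log2 fold change was 0.32 (adjusted p = 0.00476). Yars, the tyrosine enzyme, gave 25.1, 26.5 and 24.2 FPKM with control PF, 30.0, 30.4 and 31.3 with TNBS PF and 23.4, 24.0 and 24.5 with PBS, with a log2 fold change of 0.27 (adjusted p = 0.00072). For both genes the TNBS PF values stood apart from the other libraries.

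Phenylalanine tRNA is charged by an enzyme of unlike subunits, encoded by Farsa and Farsb. Farsb, the beta subunit gene, gave 31.9, 31.0 and 28.9 FPKM with control PF, 34.6, 34.4 and 35.9 with TNBS PF and 30.5, 31.2 and 31.3 with PBS, a log2 fold change of 0.19 (adjusted p = 0.00758). Farsa, the alpha subunit gene, gave 9.91, 9.77 and 9.84 FPKM with control PF, 10.0, 11.3 and 11.6 with TNBS PF and 9.98, 9.87 and 10.5 with PBS, and its fitted log2 change was 0.14 (adjusted p = 0.0986). All 3 TNBS PF values of Farsa lay above those of control PF but within the range of PBS for TNBS PF 1. Without TNBS PF 1 its adjusted p was 0.027 and its change passed, in a range over 19 alternatives from 0.027 to 0.306.

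Rars, a subunit of the multisynthetase complex, gave 55.6, 56.0 and 52.2 FPKM with control PF, 70.7, 69.3 and 71.9 with TNBS PF and 53.4, 58.2 and 57.8 with PBS. Its log2 fold change of 0.37 (SE 0.0390, adjusted p = 0.000104) was the largest of the 44 genes on this scale (ENSMUSG00000018848, chromosome 11, 35808381 to 35834506, minus strand). By limma voom Rars, at 0.37, came after the mitochondrial gene Ears2, which also had 0.37 but did not pass. Mars1, the methionine enzyme of the complex, gave 50.5, 54.7 and 52.3 FPKM with control PF, 63.9, 63.6 and 66.5 with TNBS PF and 50.6, 49.6 and 53.3 with PBS. Its TNBS PF values lay above the other 6 libraries, with a log2 fold change of 0.30 (adjusted p = 0.000305). Exons of Mars1 share 68 bases on the opposite strand with Ddit3, an ATF4 pathway gene that also rose, or 1.99% of the exon length of Mars1, and no source used here gives the strand of the libraries.

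Iars, the isoleucine enzyme, gave 57.7, 57.9 and 58.6 FPKM with control PF, 70.1, 71.7 and 74.9 with TNBS PF and 59.6, 55.2 and 60.9 with PBS. Lars, the leucine enzyme, gave 62.7, 62.4 and 61.8 FPKM with control PF, 70.2, 74.4 and 76.0 with TNBS PF and 60.3, 59.8 and 63.1 with PBS. The log2 fold changes were 0.31 (adjusted p = 0.000248) and 0.24 (adjusted p = 0.000804), and for both genes the TNBS PF values lay above the rest. Eprs, which joins glutamate and proline in a single protein, gave 23.5, 24.4 and 24.8 FPKM with control PF, 26.4, 27.1 and 27.1 with TNBS PF and 24.3, 23.8 and 25.0 with PBS. Its log2 fold change of 0.15 (adjusted p = 0.0167) was the smallest of the risen genes. It did not pass without control PF 1 (adjusted p = 0.061), TNBS PF 2 (0.065) or TNBS PF 3 (0.0648), in a range over 19 alternatives from 0.00052 to 0.065.

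The remaining subunits of the complex, Dars for aspartate and Qars for glutamine, did not pass. Dars gave 43.9, 42.3 and 40.6 FPKM with control PF, 44.4, 46.7 and 41.1 with TNBS PF and 41.1, 44.2 and 44.9 with PBS, and Qars gave 20.9, 19.4 and 20.5 FPKM with control PF, 19.8, 19.9 and 19.1 with TNBS PF and 20.2, 19.9 and 20.2 with PBS. TNBS PF overlapped control PF in both, and the 95% intervals of the log2 fold change were −0.05 to 0.16 for Dars and −0.12 to 0.04 for Qars. Of the 8 synthetases of the complex 5 were called higher (median log2 fold change 0.19), and of the 13 others of the cytosolic and both-compartment classes 9 were (median 0.27). This grouping was chosen after the values were seen and carries no test.

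The log2 difference of Hars, the histidine enzyme, was 0.10 (adjusted p = 0.0533), from 43.2 ± 0.934 to 46.5 ± 0.265 FPKM (SD, n = 3 each). Vars, the valine enzyme, had 0.11 (adjusted p = 0.081), from 39.8 ± 0.614 to 42.9 ± 0.346 FPKM. Neither passed, although in both genes all 3 TNBS PF values lay above all 3 control PF values. Groups that did not overlap, with TNBS PF higher, were found for 16 of the 19 cytosolic genes, where 13.6% of all tested genes showed this. Over 19 alternatives the adjusted p ranged from 0.0291 to 0.185 for Hars, passing in 5, and from 0.031 to 0.191 for Vars, passing in 4. Tarsl2, a second threonine enzyme, was the cytosolic gene of lowest level. It was the 1 cytosolic gene whose TNBS PF values all lay below control PF, beside 1917 of all 10537 tested genes. Tarsl2 gave 3.65, 3.94 and 3.80 FPKM with TNBS PF against 3.99, 4.04 and 4.07 with control PF. Its log2 fold change was −0.07 (adjusted p = 0.428).

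**Figure D2:**
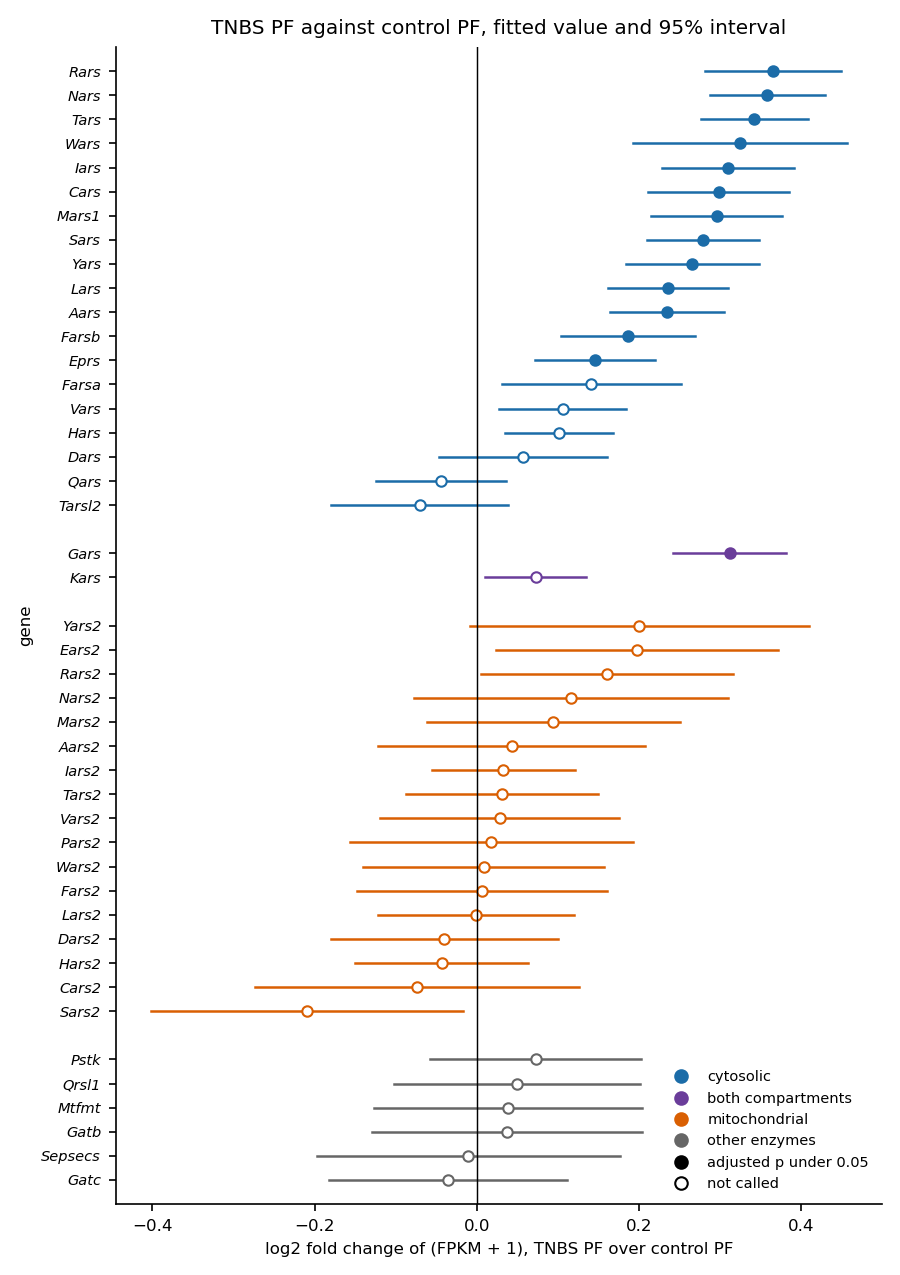
Fitted log2 fold change of (FPKM + 1) in TNBS PF over control PF for the 44 genes, with 95% intervals, by class, and filled points for genes with an adjusted p under 0.05. The 14 filled points are 13 cytosolic genes and Gars, all to the right of 0, and every mitochondrial point is open.

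The mitochondrial synthetase genes were expressed at much lower levels. Their mean FPKM ran from 1.16 (Mars2) to 9.06 (Rars2), with a median of 2.83, against a median of 43.3 for the cytosolic genes, whose means ran from 3.97 (Tarsl2) to 160.0 (Nars). In the 19 pairs of a cytosolic and a mitochondrial gene for the same amino acid, the ratio of mean FPKM was between 0.811 (Tarsl2 to Tars2) and 104.0 (Nars to Nars2), with a median of 10.9. The highest means after Nars were those of Gars (116.5) and Kars (67.8), and the lowest after Mars2 those of Ears2 (1.22) and Cars2 (1.43). Members nearest the lower limit were Ears2, at 1 FPKM or more in 7 libraries, and Mars2, in 8.

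On the log2(FPKM + 1) scale Sars2 and Yars2 had the largest absolute changes of this class. Sars2 gave 1.87, 2.56 and 2.23 FPKM with control PF, 1.53, 2.02 and 1.80 with TNBS PF and 2.43, 2.08 and 2.35 with PBS. Yars2 gave 4.92, 5.50 and 4.85 FPKM with control PF, 5.40, 6.70 and 5.93 with TNBS PF and 4.96, 5.35 and 6.95 with PBS. Their log2 fold changes of −0.21 (adjusted p = 0.16) and 0.20 (adjusted p = 0.22) did not pass, and control PF and TNBS PF overlapped in both genes. Ears2, the glutamate enzyme, had the largest change by limma voom, at 0.37 (adjusted p = 0.0727), against 0.20 (adjusted p = 0.142) on the log2(FPKM + 1) scale. It gave 0.988, 1.35 and 0.974 FPKM with control PF, 1.35, 1.56 and 1.30 with TNBS PF and 1.21, 1.14 and 1.14 with PBS, so that control PF 2 lay within the TNBS PF range. It did not pass in any alternative that tested it, and a filter at 5 FPKM, among the 19, left it out. TNBS PF and control PF did not overlap in 1 of the 17 genes, Rars2, beside 1434 higher and 1917 lower of all 10537 tested genes. The TNBS PF values of Rars2, 8.86, 9.07 and 10.4 FPKM, lay above its control PF values of 8.37, 8.81 and 7.83. Its PBS values, 8.85, 10.5 and 8.84 FPKM, spanned the TNBS PF range, and its log2 fold change against control PF was 0.16 (adjusted p = 0.182).

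Adding 1 to FPKM understates changes of genes at these levels, so the intervals were also taken from limma voom on recovered fragments. On the log2(FPKM + 1) scale, 12 of the 17 mitochondrial genes had an upper 95% bound under the cytosolic median of 0.24, and for the other 5 (Ears2, Mars2, Nars2, Rars2 and Yars2) the bound ran from 0.25 to 0.41. By limma voom 10 of 17 had an upper bound under the cytosolic median, and the bounds of the other 7 reached 0.66. For Ears2, Mars2, Nars2, Rars2, Yars2, Aars2 and Pars2, a change of the size seen in the cytosolic genes was thus within the interval at this depth. Unadjusted p was under 0.05 for 3 of the 17 genes by limma, beside 2661 of all 10537 tested genes. Of the 3, Ears2 and Rars2 were higher and Sars2 was lower.

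Gene by gene, the cytosolic member had the larger log2 fold change in 17 of 19 pairs, also with limma voom. The 19 pairs cover 17 amino acids and reuse Eprs, Fars2 and Tars2, so they are not all separate. Sars and Sars2 were the farthest apart, at 0.28 and −0.21, followed by Cars and Cars2, at 0.30 and −0.07. The exceptions were Eprs (0.15) with Ears2 (0.20), and Tarsl2 (−0.07) with Tars2 (0.03). These are values side by side, with no test of a pair.

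**Figure D3:**
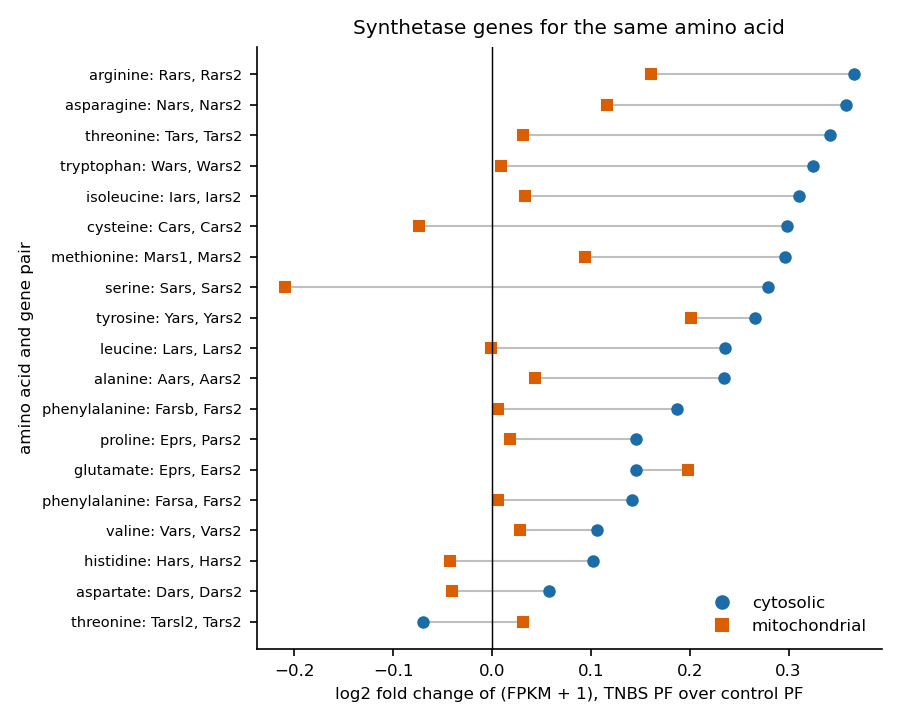
Log2 fold change of (FPKM + 1) in TNBS PF over control PF for the cytosolic (circle) and mitochondrial (square) synthetase genes of each amino acid, with a line joining each pair. Circles lie right of the squares in 17 of 19 pairs.

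Mitochondria lack a glutamine enzyme of their own and convert glutamate on glutamine tRNA with an amidotransferase, whose subunits are encoded by Qrsl1, Gatb and Gatc. Qrsl1 gave 3.15, 3.63 and 3.55 FPKM with control PF, 3.81, 3.39 and 3.59 with TNBS PF and 3.81, 3.95 and 3.28 with PBS, without separation of the groups. The log2 fold changes of Qrsl1, Gatb and Gatc were 0.05, 0.04 and −0.04. Pstk and Sepsecs, which make selenocysteine on its tRNA, had 0.07 and −0.01, and Mtfmt, which formylates the mitochondrial initiator tRNA, had 0.04. Pstk gave 2.31, 2.30 and 2.23 FPKM with control PF, 2.40, 2.61 and 2.34 with TNBS PF and 2.16, 2.32 and 2.41 with PBS. Its TNBS PF values lay above those of control PF but overlapped PBS, and 58.8% of its exon length is shared with Ikzf5 on the opposite strand. None of the 6 passed by limma, with 0 called by limma voom and adjusted p from 0.501 to 0.959. At an unadjusted p under 0.05 by limma there were 0, beside 2661 of all 10537 tested genes.

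Setting TNBS PF beside PBS uses the same TNBS PF libraries and is therefore not independent of the first. In it 14 of 19 cytosolic genes and Gars were called higher, where 7.80% of all tested genes were called higher and 16.7% in either direction. Gars had 0.37 (adjusted p = 1.11e-05), Nars 0.36 (adjusted p = 1.31e-05), Yars 0.34 (adjusted p = 7.90e-05) and Mars1 0.33 (adjusted p = 7.67e-05). Vars, which gave 39.2, 39.8 and 40.5 FPKM with control PF, 43.1, 42.5 and 43.2 with TNBS PF and 39.1, 35.9 and 39.4 with PBS, was called here with 0.17 (adjusted p = 0.00661) and not against control PF. Its control PF and PBS values lay close together except for a lower PBS 2. Eprs, at 0.14 (adjusted p = 0.0168), was the called gene of smallest change and did not pass without TNBS PF 2 (adjusted p = 0.0612), TNBS PF 3 (0.0611) or PBS 2 (0.0514), or with TPM scaling (0.0542), in a range over 19 alternatives from 0.000874 to 0.0612.

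Of the mitochondrial genes 0 of 17 were called against PBS by limma, and 1 by limma voom. By limma 3 of the 17 had an unadjusted p under 0.05, beside 3266 of all 10537 tested genes. Of tested genes within the FPKM range of the mitochondrial genes 10.1% were called in either direction. In 5 of the 17 every TNBS PF value lay above every PBS value, and in 1 below, beside 1637 and 2080 of all 10537 tested genes. The median log2 fold change of the 17 was 0.06, beside −0.01 over all tested genes. Iars2, the isoleucine enzyme of mitochondria, came nearest to a call. It gave 9.08, 9.09 and 9.23 FPKM with control PF, 9.28, 9.21 and 9.62 with TNBS PF and 8.37, 8.55 and 8.73 with PBS, so that TNBS PF and control PF both lay above PBS, with a log2 fold change of 0.12 (adjusted p = 0.0636) for TNBS PF. It passed in 4 of 19 alternatives, in a range of adjusted p from 0.0333 to 0.195. Exons of Iars2 share 22.9% of their length with Rab3gap2 on the opposite strand.

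Control PF beside PBS addresses the response to fluid of control mice. Here 0 of the 44 genes were called in either direction by limma, where 2.15% of all tested genes were. The count was 0 in each of 19 alternatives, limma voom included, though a filter at 5 FPKM left some of the 44 untested. At an unadjusted p under 0.05 by limma there was 1 of the 44, Kars, beside 1643 of all 10537 tested genes. The log2 fold change of Kars was −0.07 (adjusted p = 0.223). Nars2 (−0.16) and Rars2 (−0.15) had the largest absolute changes of the 44 genes on the log2(FPKM + 1) scale. Among the cytosolic genes, log2 fold changes ran from −0.06 (Wars) to 0.07 (Yars), with a median of −0.01 beside 0.001 over all tested genes. For Nars the 95% interval was −0.07 to 0.08 and for Tars −0.11 to 0.03.

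**Figure D4:**
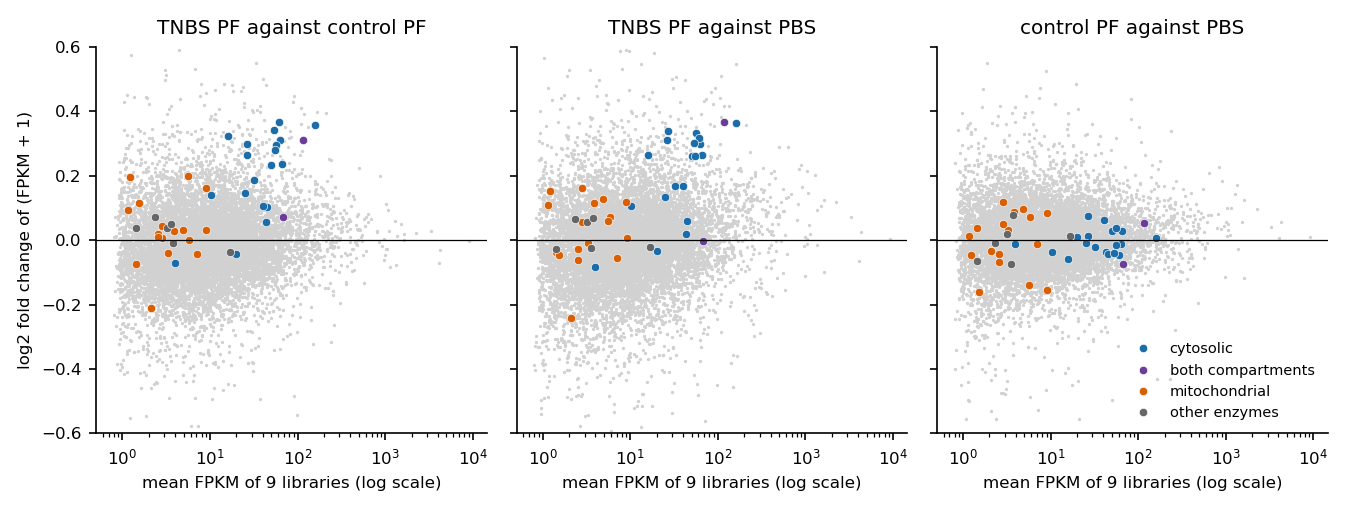
Log2 fold change of (FPKM + 1) against mean FPKM of 9 libraries (log axis) in the 3 comparisons, with all tested genes in grey and the 44 genes coloured by class; grey points beyond ±0.6 are not drawn. In each TNBS PF comparison 17 of 19 cytosolic genes stand above 0 and 2, Qars and Tarsl2, below, while 8 stand above and 11 below with control PF against PBS.

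Other genes of tRNA use and of the amino acid response were taken from lists chosen with earlier results of these data known. Their counts in TNBS PF against control PF stand beside 5.15% of all tested genes called higher, 5.45% lower and 10.6% in either direction. Of the 3 scaffold genes of the multisynthetase complex, Eef1e1 rose with TNBS PF against control PF and Aimp1 and Aimp2 did not pass. Eef1e1 gave 13.7, 13.3 and 12.8 FPKM with control PF, 16.6, 16.3 and 16.5 with TNBS PF and 11.2, 14.5 and 11.6 with PBS. Its TNBS PF values lay above the other 6, with a log2 fold change of 0.30 (adjusted p = 0.0184), against 0.20 (adjusted p = 0.0926) for Aimp2 and 0.06 (adjusted p = 0.49) for Aimp1. The call of Eef1e1 was lost in 6 of 19 alternatives: with no filter (adjusted p = 0.0774), without control PF 2 (0.0519) or 3 (0.0701), and without TNBS PF 1 (0.0604), 2 (0.0504) or 3 (0.0565), in a range from 0.000405 to 0.0774. Xpot, which exports tRNA from the nucleus, gave 38.4, 40.3 and 41.1 FPKM with control PF, 48.9, 48.5 and 51.4 with TNBS PF and 40.3, 40.0 and 41.0 with PBS. It rose by 0.30 (adjusted p = 0.000157), the single call among 6 genes of tRNA export and end processing, where 10.6% of all tested genes were called. Trnt1, which adds the CCA end that is charged, had 0.16 (adjusted p = 0.106), Elac2, which trims the tRNA end before it, 0.14 (adjusted p = 0.167), and Ssb 0.07 (adjusted p = 0.301).

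Of 6 elongation factor genes of the cytosol, Eif5a rose by 0.18 (adjusted p = 0.000976) and 5 did not pass, which is 1 call of 6 beside 10.6% of all tested genes. Eef1a1, which carries charged tRNA to the ribosome, had −0.03 (adjusted p = 0.629), and its exchange factor subunits Eef1d and Eef1g had 0.10 (adjusted p = 0.0908) and 0.09 (adjusted p = 0.0775). Of 9 genes of mitochondrial initiation, elongation and release, 1 was called higher, Tsfm, at 0.24 (adjusted p = 0.0318), a count near the 10.6% of all tested genes. Its call was lost in 5 of 19 alternatives: with no filter (adjusted p = 0.0915), without control PF 2 (0.0936) or 3 (0.111), and without TNBS PF 1 (0.127) or 3 (0.0699), in a range from 0.0179 to 0.127. Tufm, the partner of Tsfm and the mitochondrial carrier of charged tRNA, had 0.07 (adjusted p = 0.357), Mtrf1 0.09 (adjusted p = 0.662) and Mtif2 0.06 (adjusted p = 0.53). Of 3 tested editing genes, Dtd1 (−0.01), Dtd2 (0.18) and Prorsd1 (0.05), 0 passed by limma, also at an unadjusted p under 0.05, with limma voom giving 0 as well. Of all 10537 tested genes 2661 had an unadjusted p under 0.05 by limma.

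Among 29 genes of amino acid supply and the ATF4 response, 26 were called higher and 0 lower, beside 5.15% higher and 5.45% lower of all tested genes. The 3 not called were Atf3 at 0.19 (adjusted p = 0.199), Slc38a2 at 0.04 (adjusted p = 0.477) and Cebpb at −0.23 (adjusted p = 0.179). All TNBS PF values of Cebpb lay below those of control PF. The median log2 fold change was 0.33 over the list and −0.01 over all tested genes. Atf4 itself gave 109, 105 and 108 FPKM with control PF, 134, 140.5 and 149 with TNBS PF and 102, 103 and 111 with PBS. Its 3 TNBS PF values lay above the other 6, with a log2 fold change of 0.39 (adjusted p = 0.000105). Trib3 (0.64), Chac1 (0.62), Slc7a5 (0.55) and Slc7a11 (0.51) had the largest changes, each above that of any synthetase gene. Asns, which makes asparagine, the substrate of Nars, gave 100.4, 101 and 96.7 FPKM with control PF, 126, 132 and 139 with TNBS PF and 92.1, 89.4 and 96.6 with PBS, a log2 fold change of 0.41 (adjusted p = 5.01e-05). In control PF against PBS 1 of the 29 was called, Shmt2, at 0.18 (adjusted p = 0.0213), a count near the 2.15% of all tested genes. Its call was lost with no filter (adjusted p = 0.0762) and without control PF 1 (0.0660), control PF 2 (0.0867) or PBS 1 (0.0620), in a range over 19 alternatives from 0.00215 to 0.0867. Of the 4 kinases that phosphorylate eIF2, Eif2ak1 to Eif2ak4, 0 passed in TNBS PF against control PF by limma. By limma voom 1 passed, where 1549 of 10523 genes were called. Eif2ak4, the kinase that senses uncharged tRNA, had 0.06 (adjusted p = 0.551), Eif2ak3 −0.12 (adjusted p = 0.305) and Eif2ak1 −0.01 (adjusted p = 0.894). Eif2ak2 had −0.10 (adjusted p = 0.079), the 1 gene of the 4 at an unadjusted p under 0.05, beside 2661 of all 10537 tested genes. All TNBS PF values of Eif2ak2 lay below those of control PF. Against PBS it was called lower with TNBS PF, at −0.21 (adjusted p = 0.00103), the 1 call of the 4 where 16.7% of all tested genes were called.

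**Figure D5:**
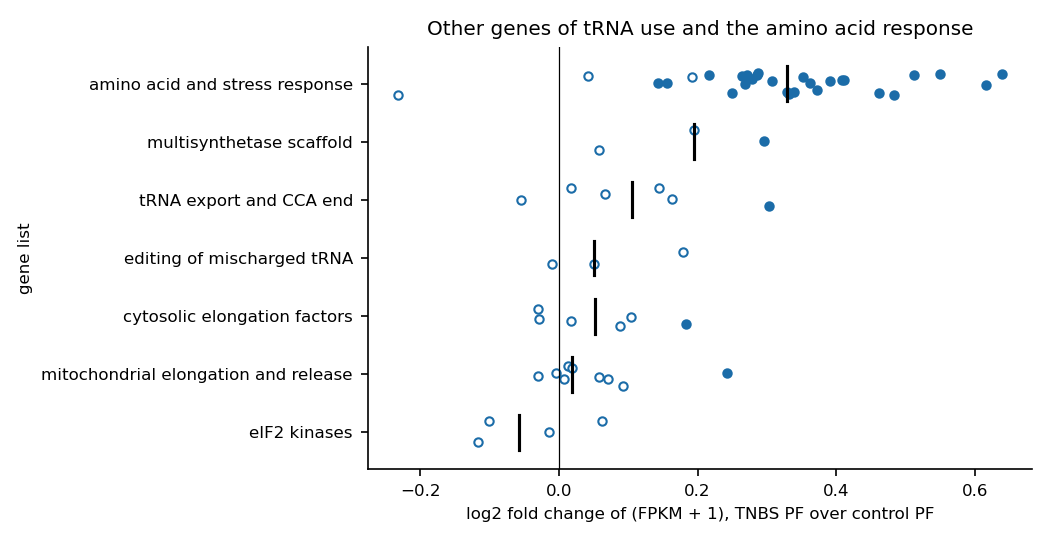
Log2 fold change of (FPKM + 1) in TNBS PF over control PF for each tested gene of 7 lists, with filled points for an adjusted p under 0.05, bars at list medians and vertical scatter for display only. Of the amino acid and stress response genes, 26 of 29 points are filled, and Eef1e1, Xpot, Eif5a and Tsfm are the filled points of the other lists.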

How the data were processed

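RNA was sequenced from 3 groups of 3 libraries. Per the labels' protocols total RNA was isolated with Trizol. Per the submitters' processing notes reads were trimmed with cutadapt 1.15 and the build was mm10. Aligner, counting program and strand: not given in the sources used here. Per the file headers the deposited table holds FPKM per library, which the authors computed, with their group means. The deposited log2 fold changes and p-values of the authors, per the file headers, were not used.

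Genes with FPKM of at least 1 in 3 libraries (10537) were tested on log2(FPKM + 1) in 1 linear model of all 9 libraries with limma 3.58.1 in R 4.3.3, with a mean-variance trend and Benjamini-Hochberg adjustment over all tested genes. Adjusted p in the text are from this fit unless limma voom is named. Fragments were recovered from FPKM and exon lengths of GENCODE M21 (21851 genes). Within a tolerance of 0.01, 97.2 to 97.3% of values under 1000 fragments were whole. Members, classes and lists were chosen with earlier results of these data known.

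Library values are given for genes called in any comparison and for the 2 largest absolute changes per class, and for Atf4 and the 4 largest changes per list as log2 values; Farsa, Dars, Qars, Tarsl2, Ears2, Rars2, Iars2, Eef1e1, Xpot and Asns were added after their values were seen. Promoters were shown for the 6 largest rises with a window outside chromosome 18. The procedure was tested on simulated data. Alternatives were a pseudocount of 0.1, no filter, a filter at 5 FPKM, TPM, median-ratio and quantile scaling, limma voom, fits of 2 groups, a replicate block, leaving out each library, and, chosen after seeing the data, thinned fragments.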

Additional observations from a re-analysis of the deposited data

How the results depend on the processing

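The 29 calls of synthetase genes were each refitted under 19 alternatives: 544 refits kept the call, 7 lost it, all of Eprs, and 0 changed sign. The count of cytosolic genes called ranged from 12 to 14 against control PF and from 13 to 15 against PBS when a library was left out. Mitochondrial genes called numbered 0 against control PF throughout, with 6 of the 17 tested under the filter at 5 FPKM. Against PBS they numbered 1 (Iars2) with no filter, with median-ratio scaling, with quantile normalization and with limma voom. Over all tested genes, leaving out a library gave 661 to 1255 calls (1117 as designed) in TNBS PF against control PF, 1148 to 1735 (1758) in TNBS PF against PBS and 115 to 311 (227) in control PF against PBS. In the last, no filter gave 103 and limma voom 374. Counts moved by over 1.5 times in TNBS PF against control PF without control PF 2 (733), control PF 3 (708) or any TNBS PF library (691, 661 and 676), TNBS PF against PBS without TNBS PF 3 (1148), and control PF against PBS without any control PF library (115, 130 and 124) or PBS 3 (142). Of the 1117 calls 543 were higher and 574 lower, and with median-ratio scaling 679 and 442. In TNBS PF against PBS the split was 822 to 936, with 1047 to 762 by median-ratio and 625 to 1152 by TPM scaling. In control PF against PBS 107 were higher and 120 lower, and 194 and 117 without PBS 2. Replicate numbers were not treated as pairs in the main fit. Deviations of same-numbered libraries correlated between −0.0978 and 0.0746, and those of others between −0.075 and 0.0776. With 3 libraries in each group, these correlations cannot exclude pairing. With the number as a replicate block, calls over all genes numbered 906 (TNBS PF against control PF), 169 (control PF against PBS) and 1537 (TNBS PF against PBS), and the cytosolic counts stayed 13, 0 and 14. Low fragment numbers limit what can be said of the mitochondrial genes.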
